A study of Mus musculus with 6 samples.

Results

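The colony-stimulating factors and their receptors were described in bone marrow-derived macrophages (BMDMs, macrophages grown in culture from bone marrow cells). The 8 genes of this family were taken by symbol from the 55335 genes of the expression table, namely the ligands *Csf1*, *Csf2* and *Csf3* and the receptor genes *Csf1r*, *Csf2ra*, *Csf2rb*, *Csf2rb2* and *Csf3r*. All 8 had exactly 1 row in the table.

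BMDMs carrying wild-type *Cd177* were used in both groups. They were grown for 7 days with 25 ng/ml of macrophage colony-stimulating factor (M-CSF), which is the protein product of *Csf1*, so every library came from cells that had received this ligand. They were then kept for 24 h with neutrophils taken by magnetic sorting from the injured spinal cord at 3 days post-injury (dpi), and macrophages were recovered by flow sorting for RNA sequencing, with a gate that is not given in the sources used here. In 3 libraries the neutrophils came from *Cd177* WT mice, and in 3 they came from mice whose *Cd177* gene was knocked out (*Cd177* KO), a deletion carried by the neutrophils and not by the sequenced cells. All mice were male per the study's methods, which describe the wild-type mice as adult C57BL/6 and do not give the background of the KO line. No library of BMDMs without neutrophils was analysed here. How many mice or cultures stood behind each library is not given in the sources used here, so the p-values measure the spread between these libraries, which may be technical.

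M-CSF (CSF1) acts through the receptor tyrosine kinase CSF1R and keeps cells of the macrophage lineage alive and dividing. GM-CSF (encoded by *Csf2*) binds an alpha chain encoded by *Csf2ra* and signals through a beta chain shared with the receptors of IL-3 and IL-5, by way of the kinase JAK2 and the transcription factor STAT5. In the mouse this common beta chain is encoded by *Csf2rb*, while the neighbouring copy *Csf2rb2* encodes a beta chain that serves IL-3. G-CSF (encoded by *Csf3*) acts through CSF3R and is best known for driving the production and release of neutrophils.

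Levels are in FPKM, that is fragments counted per kilobase of a gene's transcripts and scaled to the size of the library, which allow levels of different genes to be set side by side. Differences are log2 fold changes of FPKM + 0.5, KO minus WT, from limma in 13367 genes, those averaging 0.5 FPKM or more. The added 0.5 makes the change of a low gene come out too small. Adjusted p-values are Benjamini-Hochberg values over all of these genes. The median log2 fold change of all tested genes was 0.19 with the values as deposited, -0.01 with median-of-ratios scaling and -0.00094 with upper-quartile scaling, so a small rise depends on the scaling. *Cd177* had 0.544, 0.309 and 0.521 FPKM in libraries labelled WT, against 1.79, 1.84 and 2.28 FPKM in libraries labelled KO, so it was higher where the label says that the neutrophils lacked the gene. The sequenced BMDMs carry the gene in both groups, and every direction below is one between libraries as they are labelled. Macrophage markers were present in every library, with *Adgre1* (encoding F4/80) between 218 and 309 FPKM and *Cd68* between 456 and 587 FPKM. Between the groups 37.6% of all tested genes had an adjusted p-value under 0.05 (27.1% were higher with KO neutrophils and 10.5% were lower).

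Of the 8 genes, 6 passed the filter and 5 of these 6 differed at an adjusted p-value under 0.05, against 37.6% of all tested genes. *Csf3r* and *Csf1* rose in the libraries labelled KO, and *Csf2ra*, the alpha chain of the GM-CSF receptor, and the beta chain genes *Csf2rb* and *Csf2rb2* fell. *Csf1r* did not pass the test. *Csf2* and *Csf3* lay under the filter and were listed at 0 in every library labelled KO. WT and KO libraries were fully apart in 5 of these 6, against 51.9% of all tested genes. The study called genes at a fold above 2 with p under 0.05 before adjustment. By that rule 3 of the 6 passed, against 11.1% of all tested genes. *Csf3r* was higher, as were 6.68% of all tested genes, and *Csf2rb* and *Csf2rb2* were lower, as were 4.43%.

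**Figure D1:**
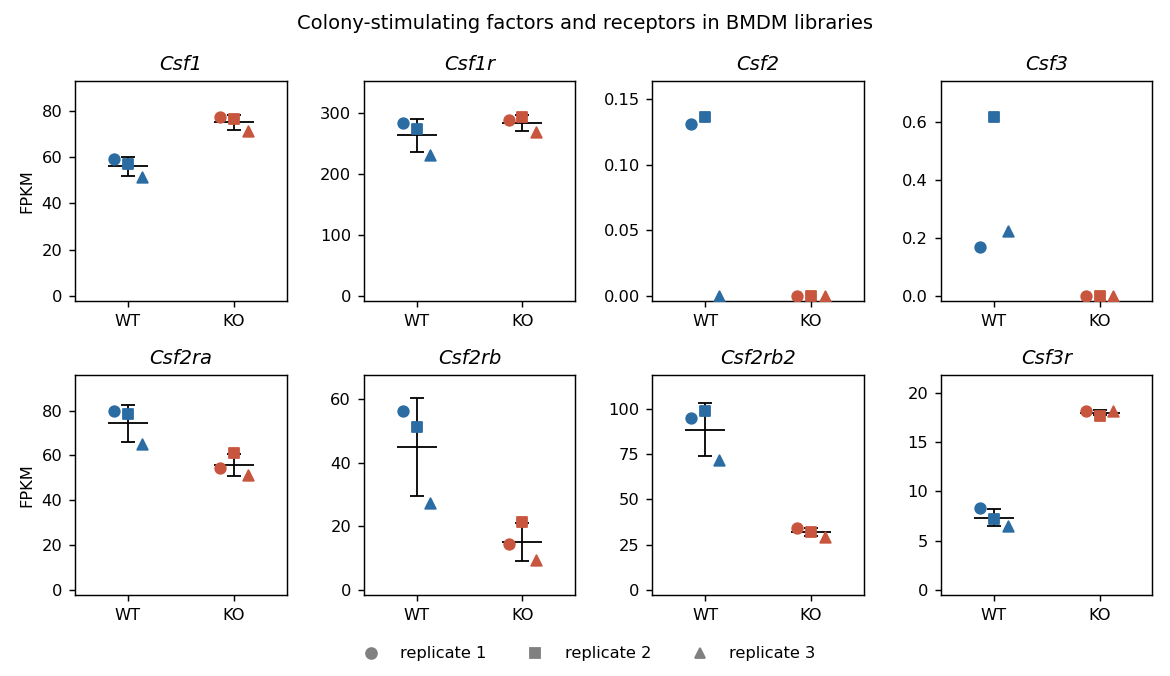
FPKM of the 8 genes in each of the 6 libraries (vertical axes, one linear scale per panel) by group as labelled (horizontal axes). Points are libraries, with the replicate number as the shape, and bars are the mean ± SD of 3 libraries, left out for *Csf2* and *Csf3*. The KO points lie above the WT points for *Csf1* and *Csf3r* and below them for *Csf2ra*, *Csf2rb* and *Csf2rb2*, and they overlap for *Csf1r*.

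Among the ligands, *Csf1* (ENSMUSG00000014599, chromosome 3 from 107741048 to 107760469, minus strand, GRCm38) was abundant and higher in the libraries labelled KO. It had 59.3, 57.3 and 51.6 FPKM in WT replicates 1, 2 and 3 and 77.5, 76.5 and 71.5 FPKM in KO replicates 1, 2 and 3. Each KO library was above each WT library. The mean rose from 56.1 ± 3.98 to 75.1 ± 3.22 FPKM (SD, n = 3 each, log2 fold change 0.42 with SE 0.09, 95% confidence interval 0.22 to 0.63, limma adjusted p = 0.0091). This call was lost with median-of-ratios scaling (log2 fold change 0.19, adjusted p = 0.112) and with upper-quartile scaling (0.21, adjusted p = 0.0886). In these bulk libraries more RNA per cell and more cells of a type cannot be told apart.

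M-CSF is also made by stromal cells such as fibroblasts, and fibroblast markers were present at unlike levels. *Col1a1* (a chain of type I collagen) lay between 228 and 361 FPKM in libraries labelled WT, against between 292 and 344 FPKM in libraries labelled KO. *Dcn* and *Pdgfra* were low, with means of 2.82 and 3.07 FPKM in libraries labelled WT, against 1.11 and 3.36 FPKM in libraries labelled KO. The 6 stromal and endothelial markers summed to between 348 and 511 FPKM in the former and between 452 and 511 FPKM in the latter. Of the 5 that were tested, *Dcn* and *Kdr* were called lower and none was called higher, against 10.5% lower and 27.1% higher of all tested genes. The collagen gene *Col1a2* had 142, 136 and 113 FPKM in WT replicates 1, 2 and 3 and 165, 162 and 155 FPKM in KO replicates 1, 2 and 3. Its groups were apart, but it did not pass the test (log2 fold change 0.31, limma adjusted p = 0.0578). The part of these transcripts in the level of *Csf1* was not tested.

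*Csf3* (ENSMUSG00000038067, chromosome 11 from 98701263 to 98703629, plus strand) had 0.17, 0.617 and 0.225 FPKM in WT replicates 1, 2 and 3 and was listed at 0 in all 3 libraries labelled KO. *Csf2* (ENSMUSG00000018916, chromosome 11 from 54247271 to 54249667, minus strand) had 0.131 and 0.137 FPKM in WT replicates 1 and 2 and was listed at 0 in WT replicate 3 and in all 3 libraries labelled KO. Both ligand genes thus stood near the floor of the measurement in these macrophages. If the smallest common step of the low values is 1 fragment, the values of *Csf2* correspond to 2.00 and 1.98 fragments and those of *Csf3* to 4.55, 15.8 and 5.73 fragments. Without the filter, limma over 28101 genes gave *Csf3* an adjusted p-value of 0.0652 and *Csf2* one of 0.204, and no fold is given against a group listed at 0. An exon of the predicted gene *Gm12223* overlaps *Csf2* on the opposite strand, and the strand setting of the counting is not given in the sources used here.

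*Csf1r* (ENSMUSG00000024621, chromosome 18 from 61100598 to 61132149, plus strand), which encodes the M-CSF receptor, was the most abundant of the 8 genes in both groups. It had 284, 273 and 232 FPKM in WT replicates 1, 2 and 3 and 288, 293 and 268 FPKM in KO replicates 1, 2 and 3. The groups overlapped, since KO replicate 3 lay below WT replicates 1 and 2. The mean was 263 ± 27.6 FPKM in libraries labelled WT, against 283 ± 13.5 FPKM in libraries labelled KO (SD, n = 3 each), at a log2 fold change of 0.11 with a 95% confidence interval from -0.13 to 0.36 (adjusted p = 0.431 from limma). The sign turned to -0.12 with median-of-ratios and -0.10 with upper-quartile scaling. An exon of *Hmgxb3* overlaps the gene on the opposite strand.

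Since the ligand and the receptor were measured in the same libraries, the ratio of *Csf1* to *Csf1r* was taken within each library, where a common scale cancels. On the log2(FPKM + 0.5) scale it was -2.25, -2.24 and -2.16 in WT replicates 1, 2 and 3 and -1.89, -1.93 and -1.90 in KO replicates 1, 2 and 3. Every KO library thus had more *Csf1* relative to *Csf1r* than every WT library. The mean difference was 0.31 with an exact two-sided permutation p-value of 0.1, which is the smallest that 3 libraries against 3 can give.

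**Figure D2:**
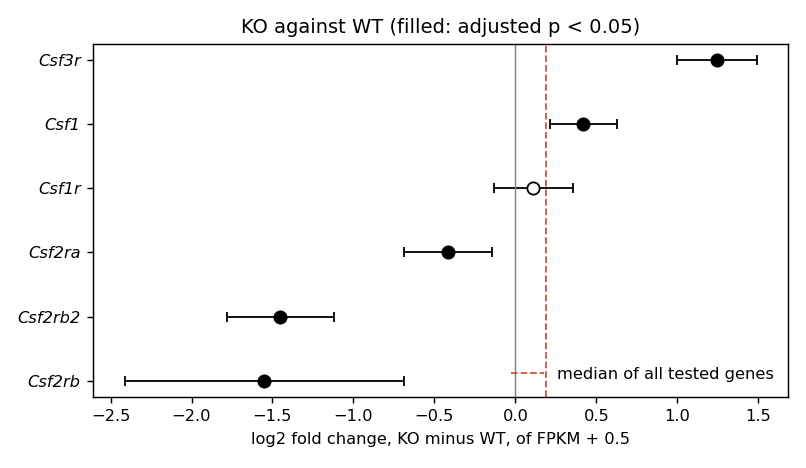
Log2 fold change of FPKM + 0.5, KO minus WT (horizontal axis), of the 6 tested genes, with 95% confidence intervals from limma. Filled points have an adjusted p-value under 0.05, and the dashed line is the median of all tested genes, 0.19. The interval of *Csf1r* covers both 0 and this median, and the intervals of *Csf2ra*, *Csf2rb* and *Csf2rb2* lie below 0.

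The GM-CSF receptor alpha chain and both beta chain genes fell, whereas *Il3ra*, the alpha chain of the IL-3 receptor, rose by 0.45 with the values as deposited. The log2 fold changes of the 3 genes that fell were -1.55 (*Csf2rb*), -1.45 (*Csf2rb2*) and -0.41 (*Csf2ra*), and the differences among them were not tested. *Csf2rb2* (ENSMUSG00000071714, chromosome 15 from 78282507 to 78305721, minus strand) had 95.2, 99.1 and 71.6 FPKM in WT replicates 1, 2 and 3 and 33.98, 32.1 and 29.4 FPKM in KO replicates 1, 2 and 3. The lowest WT library was well above the highest KO library. The mean fell from 88.6 ± 14.8 to 31.8 ± 2.29 FPKM (SD, n = 3 each, log2 fold change -1.45 with SE 0.14, limma adjusted p = 0.000374), and the adjusted p-value stayed at or under 0.00299 in all 17 alternatives run.

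*Csf2rb* (ENSMUSG00000071713, chromosome 15 from 78325752 to 78353847, plus strand), the gene of the beta chain common to GM-CSF, IL-3 and IL-5, had 56.3, 51.2 and 27.2 FPKM in WT replicates 1, 2 and 3. In KO replicates 1, 2 and 3 it had 14.4, 21.4 and 9.45 FPKM. The groups did not overlap, but WT replicate 3 lay close to KO replicate 2. The mean fell from 44.9 ± 15.6 to 15.1 ± 5.99 FPKM (SD, n = 3 each, log2 fold change -1.55 with SE 0.36, limma adjusted p = 0.0153). The call was lost without WT replicate 1 (-1.35, adjusted p = 0.0527) or WT replicate 2 (-1.42, adjusted p = 0.0514).

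The 2 beta chain genes are neighbours on chromosome 15 and alike in sequence, so reads can be shared or split between them. Over the coding sequences of their longest coding transcripts in GENCODE M21 (2688 and 2634 bases), 92.9% of the aligned positions were identical. The 66 gap positions counted as differing here, and the longest identical run was 242 bases. Of all 100-base windows of the *Csf2rb* transcript, 7.2% were found unchanged in the *Csf2rb2* transcript, and of all 50-base windows 18.9% were. The 90 coding bases in which they differ most are shown to let the reader see how far apart the genes are, with the 16 differing bases in capitals (*Csf2rb*, chr15:78338897-78338986, plus strand, and *Csf2rb2*, chr15:78294345-78294434, minus strand, GRCm38, from the GENCODE M21 transcripts).
*Csf2rb*: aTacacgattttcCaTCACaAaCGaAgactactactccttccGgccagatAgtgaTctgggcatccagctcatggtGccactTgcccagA
*Csf2rb2*: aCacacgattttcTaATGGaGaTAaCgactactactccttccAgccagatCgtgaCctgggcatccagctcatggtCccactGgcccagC
How the authors' counting treated reads that fit both genes is not given in the sources used here, so the level of each gene alone is uncertain.

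If each shared read was counted once, the sum of both genes does not depend on how these reads were split, apart from the small difference in length. Whether shared reads were dropped or counted for both genes is not known. It was 152, 150.2 and 98.8 FPKM in WT replicates 1, 2 and 3 and 48.3, 53.5 and 38.9 FPKM in KO replicates 1, 2 and 3. Tested as 1 row in place of both, an alternative chosen after the data were seen, it fell by 1.48 on the log2 scale (standard error 0.20, adjusted p = 0.00155 from limma), from 134 ± 30.1 to 46.9 ± 7.40 FPKM (SD, n = 3 each). The ratio of *Csf2rb* to *Csf2rb2* within a library overlapped between the groups. On the log2 scale it was -0.75, -0.95 and -1.38 in WT replicates 1, 2 and 3 and -1.22, -0.58 and -1.59 in KO replicates 1, 2 and 3, and the difference of -0.10 had an exact two-sided permutation p-value of 0.8.

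**Figure D3:**
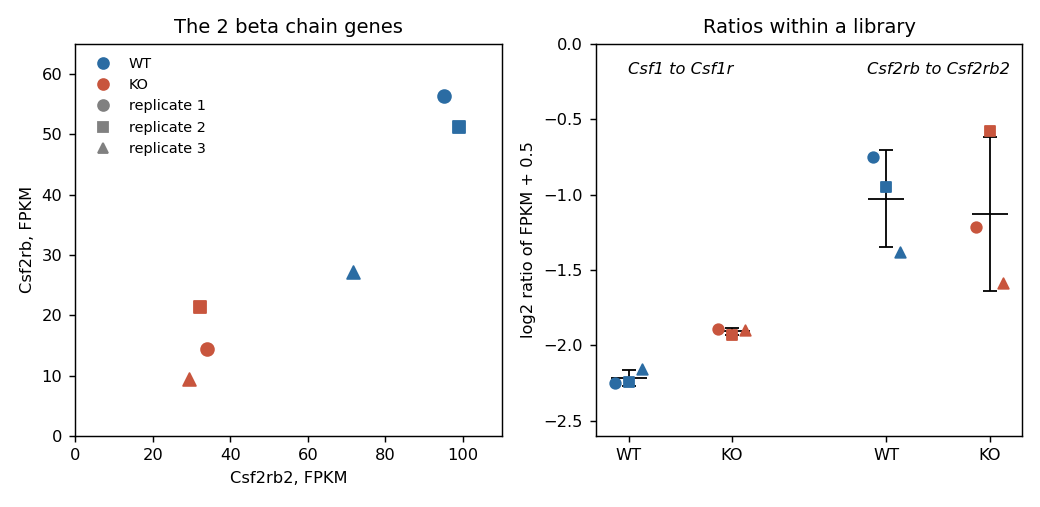
Left, FPKM of *Csf2rb* (vertical axis) against *Csf2rb2* (horizontal axis) in the 6 libraries. Right, log2 ratios of FPKM + 0.5 within a library, with the mean ± SD of 3 libraries. The WT libraries are higher in both beta chain genes, the ratio of *Csf2rb* to *Csf2rb2* overlaps between the groups, and the ratio of *Csf1* to *Csf1r* does not.

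*Csf2ra* (ENSMUSG00000059326, chromosome 19 from 61223957 to 61228429, minus strand), which encodes the GM-CSF-binding alpha chain, had 79.9, 78.3 and 64.9 FPKM in WT replicates 1, 2 and 3 and 54.3, 61.1 and 51.3 FPKM in KO replicates 1, 2 and 3. The groups did not overlap, but their nearest libraries, WT replicate 3 and KO replicate 2, lay close together. The mean fell from 74.4 ± 8.27 to 55.6 ± 5.01 FPKM (SD, n = 3 each, log2 fold change -0.41 with SE 0.11, limma adjusted p = 0.0286). The direction held in all 17 alternatives run, and 7 of them lost the call, 3 of which kept all libraries: no filter on low values (adjusted p = 0.0588), rescaling to TPM (0.0777) and quantile normalization (0.0716). Without WT replicate 1, WT replicate 2, KO replicate 1 or KO replicate 3 the adjusted p-value was 0.093, 0.0857, 0.0946 or 0.0859.

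Basophils and mast cells also carry IL-3 receptors. Of 6 markers of these cells *Mcpt8* alone was tested, with 14.6, 18.8 and 26.4 FPKM in WT replicates 1, 2 and 3 and 6.36, 6.86 and 7.52 FPKM in KO replicates 1, 2 and 3. The 6 markers summed to between 14.7 and 26.5 FPKM in libraries labelled WT, against between 6.53 and 7.54 FPKM in libraries labelled KO. *Mcpt8* is a basophil protease gene. *Fcer1a* and *Ms4a2*, which encode chains of the high-affinity IgE receptor of both cell types, and the mast cell tryptase gene *Tpsb2* were listed at 0 in all 6 libraries. The part of these cells in the fall of the beta chain genes was not tested.

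*Csf3r* (ENSMUSG00000028859, chromosome 4 from 126024550 to 126044440, plus strand), the G-CSF receptor gene, showed the largest rise of the family. It had 8.27, 7.24 and 6.51 FPKM in WT replicates 1, 2 and 3 and 18.2, 17.7 and 18.2 FPKM in KO replicates 1, 2 and 3. All KO libraries lay above all WT libraries, with little spread among themselves. The mean rose from 7.34 ± 0.887 to 18.0 ± 0.290 FPKM (SD, n = 3 each, log2 fold change 1.25 with SE 0.10, limma adjusted p = 0.000205), and the adjusted p-value stayed at or under 0.00214 in all 17 alternatives run.

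*Csf3r* is a gene of the neutrophil lineage as well as of macrophages, and neutrophil transcripts moved with it. Of 18 neutrophil markers 12 were tested, of which 10 rose, 1 fell (*Mmp8*) and 1 did not pass (*Mmp9*). This stood against 27.1% higher and 10.5% lower of all tested genes. Among the 10 that rose was *Cd177* (log2 fold change 1.37, limma adjusted p = 0.000827), the gene that the label says the KO neutrophils lacked. The list's median log2 fold change was 1.38. Genes of neutrophil granule proteins led the list, with *Ltf* (lactoferrin) at 3.09, *Ngp* at 3.02 and *Lcn2* (lipocalin-2) at 2.31. The 18 markers summed to between 196 and 257 FPKM in libraries labelled WT, against between 542 and 557 FPKM in libraries labelled KO. *Ly6g*, the defining surface marker of mouse neutrophils, was listed at 0 in WT replicates 1, 2 and 3, against 0.66, 0.547 and 0.403 FPKM in KO replicates 1, 2 and 3. The part of these transcripts in the rise of *Csf3r* was not tested.

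In the libraries labelled WT the levels ran from *Csf1r* through *Csf2rb2*, *Csf2ra*, *Csf1*, *Csf2rb* and *Csf3r* to *Csf3* and *Csf2*. *Csf2rb2* and *Csf2ra* overlapped between libraries, and so did *Csf1* and *Csf2rb*. In the libraries labelled KO the order was *Csf1r*, *Csf1*, *Csf2ra*, *Csf2rb2*, *Csf3r* and *Csf2rb*, followed by *Csf2* and *Csf3* at 0. Of the neighbours above 0 in that order only *Csf3r* and *Csf2rb* overlapped. *Csf1* thus stood below *Csf2rb2* and *Csf2ra* in libraries labelled WT, and above both in those labelled KO, and *Csf1r* led in both groups.

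Promoters of 5 of the 8 genes were searched, namely *Csf1*, *Csf2*, *Csf2ra*, *Csf2rb2* and *Csf3r*, with starts from RefSeq (GRCm38.p6). Those of *Csf3*, *Csf1r* and *Csf2rb* were not searched. The 250 bases before the start were searched on both strands for a PU.1 core (GAGGAA), C/EBP (TTGCNNAA), AP-1 (TGANTCA), GAS (TTCNNNGAA), the ISRE core and the NF-kB consensus. PU.1 is the lineage factor of myeloid cells and is known to drive genes of this family. The PU.1 core stood in the promoters of the 3 receptor genes searched, against 23.3% of all 32851 promoters, and in neither ligand window. The window of *Csf2* ran from 54249900 to 54250149 on chromosome 11, minus strand, while the GENCODE gene ends at 54249667. The bases next to that gene end were thus not searched for any motif. The windows of *Csf3r* and *Csf2ra* reached into the GENCODE genes, which start at 126024550 (*Csf3r*, plus strand) and end at 61228429 (*Csf2ra*, minus strand). The PU.1 core of *Csf3r* and the nearer of the 2 in *Csf2ra* thus lay within the GENCODE gene, and the PU.1 matches hold for the RefSeq starts used. These 3 receptor promoters and that of *Csf1* are shown because they belong to genes that fell (*Csf2ra*, *Csf2rb2*) and that rose (*Csf3r*, *Csf1*), with every match in capitals.
*Csf2ra*, chr19:61228419-61228668, minus strand: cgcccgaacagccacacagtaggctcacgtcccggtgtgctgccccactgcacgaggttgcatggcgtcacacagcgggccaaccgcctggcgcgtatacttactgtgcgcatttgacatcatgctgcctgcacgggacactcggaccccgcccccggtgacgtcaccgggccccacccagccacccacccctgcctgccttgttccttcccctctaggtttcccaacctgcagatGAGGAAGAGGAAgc
*Csf2rb2*, chr15:78305722-78305971, minus strand: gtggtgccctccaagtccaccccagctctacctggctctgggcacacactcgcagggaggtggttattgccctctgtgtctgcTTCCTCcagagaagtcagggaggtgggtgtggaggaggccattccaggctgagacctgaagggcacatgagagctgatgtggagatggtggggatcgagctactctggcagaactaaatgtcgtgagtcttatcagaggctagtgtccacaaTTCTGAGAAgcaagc
*Csf3r*, chr4:126024409-126024658, plus strand: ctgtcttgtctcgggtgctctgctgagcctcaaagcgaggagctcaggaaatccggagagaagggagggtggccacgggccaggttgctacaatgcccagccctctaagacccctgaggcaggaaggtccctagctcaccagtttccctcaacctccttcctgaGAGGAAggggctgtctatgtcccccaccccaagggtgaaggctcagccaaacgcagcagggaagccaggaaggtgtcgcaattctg
*Csf1*, chr3:107760470-107760719, minus strand: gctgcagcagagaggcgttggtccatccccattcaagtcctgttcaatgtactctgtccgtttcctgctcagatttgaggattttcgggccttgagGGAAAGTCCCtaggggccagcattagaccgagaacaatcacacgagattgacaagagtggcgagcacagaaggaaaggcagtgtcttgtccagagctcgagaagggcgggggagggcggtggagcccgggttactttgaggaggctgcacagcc
In *Csf2ra* 2 PU.1 cores followed each other directly, starting 14 and 8 bases before the start. The core lay 167 bases before the start of *Csf2rb2*, on the opposite strand, and 86 bases before that of *Csf3r*. *Csf2rb2* also held a GAS match 15 bases before its start, as did 7.0% of all promoters, and *Csf1* held an NF-kB match 154 bases before its start, as did 3.9%. *Csf2* held a C/EBP match 145 bases before its RefSeq start, as did 9.6% of all promoters. AP-1 and the ISRE core matched in none of the 5, against 6.7% and 3.0% of all promoters. No match of 1 motif overlapped that of another. These matches describe letters and are not shown to be sites. *Spi1*, the gene of PU.1, had a mean of 94.8 ± 6.26 FPKM in libraries labelled WT, against 101 ± 10.1 FPKM in libraries labelled KO (SD, n = 3 each, adjusted p = 0.512 from limma).

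Of 11 other ligands and receptors of the same families 5 were tested, with *Kitl* and *Il3ra* higher and *Sdc1* lower in the libraries labelled KO. Of all tested genes 27.1% were higher and 10.5% lower. The list's median was 0.45, against 0.19 for all tested genes. *Kitl*, the ligand of KIT, a receptor kinase related to CSF1R, rose by 0.75 (limma adjusted p = 0.00143). *Il3ra*, the alpha chain of the IL-3 receptor, had 9.74, 9.47 and 10.7 FPKM in WT replicates 1, 2 and 3 and 12.5, 12.7 and 16.5 FPKM in KO replicates 1, 2 and 3. It rose by 0.45 (adjusted p = 0.0302 from limma) where its partner chains *Csf2rb* and *Csf2rb2* fell. The call of *Il3ra* was lost in 8 of 17 alternatives, among them median-of-ratios scaling (0.23, adjusted p = 0.25). *Sdc1*, encoding syndecan-1, a binding partner of the second CSF1R ligand IL-34, fell from 114 ± 2.82 to 36.9 ± 0.777 FPKM (SD, n = 3 each, log2 fold change -1.61). *Il34* itself overlapped between the groups, with 0.867, 0.945 and 1.31 FPKM in WT replicates 1, 2 and 3 and 1.27, 1.61 and 2.65 FPKM in KO replicates 1, 2 and 3. *Il3* was listed at 0 in all 6 libraries.

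Of 24 genes of proximal receptor signalling all were tested, and 7 rose, 4 fell and 13 did not pass, against 27.1% higher and 10.5% lower of all tested genes, so the count was near the background. The list's median log2 fold change was 0.15, against 0.19 for all tested genes. The 3 listed inhibitors that cytokine receptors induce as feedback fell. *Socs1* went from 7.03 ± 0.692 to 0.788 ± 0.076 FPKM (SD, n = 3 each, log2 fold change -2.55), and *Socs3*, which restrains the G-CSF receptor, from 30.0 ± 2.5 to 8.37 ± 0.393 FPKM (SD, n = 3 each, log2 fold change -1.78). *Cish*, a STAT5-induced inhibitor, had 1.6, 1.47 and 1.6 FPKM in WT replicates 1, 2 and 3 and 0.657, 0.516 and 0.821 FPKM in KO replicates 1, 2 and 3 (log2 fold change -0.83, limma adjusted p = 0.00433). Of the kinase and factors that carry the GM-CSF signal, *Jak2* fell (-0.57, adjusted p = 0.00621 from limma) while *Stat5a* and *Stat5b* rose (0.44 and 0.67, adjusted p = 0.0192 and 0.00297). *Stat5a* lost its call in 6 of 17 alternatives, among them median-of-ratios scaling (adjusted p = 0.107), and *Stat5b* kept it in all 17 alternatives. *Pik3r1*, a PI3-kinase subunit downstream of CSF1R, rose by 0.98, *Ptpn6*, the phosphatase SHP-1, by 0.67, and *Tyrobp*, the adaptor DAP12, by 0.44. The call of *Tyrobp* was lost in 7 of 17 alternatives, among them median-of-ratios scaling (adjusted p = 0.248).

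CSF1 and CSF1R are released from the cell surface by proteases of the ADAM family. Of 5 genes of this step all were tested, and 2 fell and none rose, against 10.5% lower and 27.1% higher of all tested genes. With so few genes no more is read from this count. The list's median log2 fold change was -0.38. *Rhbdf2*, encoding iRhom2, a partner that ADAM17 needs in immune cells, fell from 22.4 ± 3.66 to 11.7 ± 0.476 FPKM and *Timp3*, an inhibitor of ADAM17, from 66.3 ± 8.08 to 45.5 ± 3.41 FPKM (SD, n = 3 each). Their log2 fold changes were -0.90 and -0.54, with limma adjusted p = 0.00226 and 0.0109. Of 12 transcription factor genes known to act in this lineage all were tested, and 3 rose, 2 fell and 7 did not pass, which was near the 27.1% and 10.5% of all tested genes. The list's median log2 fold change was -0.03. *Maf* rose by 1.89 and *Egr1* by 1.71, and *Cebpb* fell by 1.82 on the log2 scale.

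GM-CSF-responsive genes were mostly lower in the libraries labelled KO. Of 12 genes commonly described as responding to GM-CSF, 9 were tested, and 7 fell, 2 rose and none was left uncalled. Of all tested genes 10.5% were lower and 27.1% higher. The list's median log2 fold change was -1.02, against 0.19 for all tested genes. *Inhba*, encoding a subunit of activin A, had 109, 117 and 93.0 FPKM in WT replicates 1, 2 and 3 and 25.9, 25.4 and 23.5 FPKM in KO replicates 1, 2 and 3. *Pim1*, a kinase gene induced by STAT5, had 49.3, 48.6 and 36.9 FPKM in WT replicates 1, 2 and 3 and 12.4, 13.3 and 13.4 FPKM in KO replicates 1, 2 and 3. Their groups lay far apart, at log2 fold changes -2.07 and -1.74 with limma adjusted p = 2.37e-05 and 0.000118. *Pparg*, a nuclear receptor gene that depends on GM-CSF in alveolar macrophages, went the other way, from 2.40 ± 0.324 to 13.4 ± 0.347 FPKM (SD, n = 3 each, log2 fold change 2.27), and so did *Itgax* (CD11c) with 0.75. Many of these genes also respond to other cytokines, and the part of GM-CSF was not tested.

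**Figure D4:**
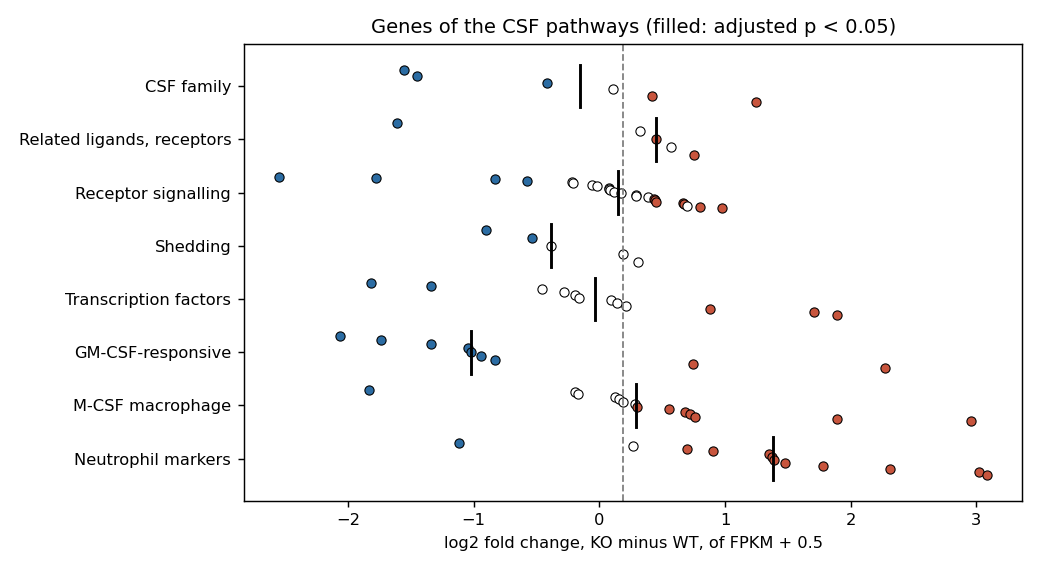
Log2 fold change of FPKM + 0.5, KO minus WT (horizontal axis), of every tested gene in 8 lists (rows). Points are genes, filled where the adjusted p-value is under 0.05 (red higher, blue lower), the bar is the list's median and the dashed line the median of all tested genes, 0.19. The GM-CSF-responsive list has its median at -1.02 and the neutrophil list at 1.38.

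**Figure D5:**
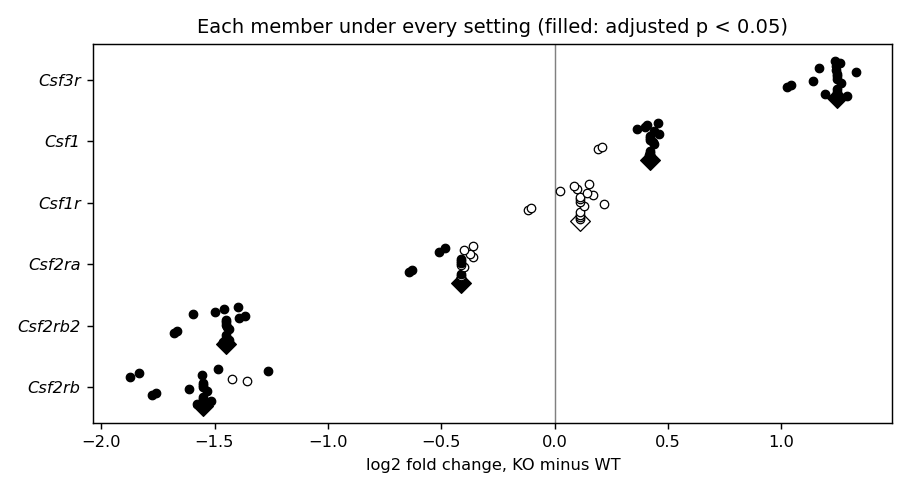
Log2 fold change, KO minus WT (horizontal axis), of the 6 tested genes as reported (diamonds) and under each alternative (circles, filled where the adjusted p-value is under 0.05). In the row of *Csf2rb*, the filled circle at -1.48 is the sum of *Csf2rb* and *Csf2rb2*, an alternative chosen after the data were seen. *Csf3r* and *Csf2rb2* stay filled throughout, *Csf1*, *Csf2ra* and *Csf2rb* have open circles on the same side of 0, and *Csf1r* is open throughout and crosses 0.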

How the data were processed

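RNA-seq values of 6 BMDM libraries, 3 labelled WT and 3 labelled KO, were analysed. Per gene, the deposited values are FPKM as the authors computed them, and read counts were not used here. The submitters' processing notes name fastp 0.17.1, HISAT2 2.1.0, DESeq2 1.18.1 and R 3.4.3 among the authors' tools, while the tool that gave FPKM, the genome build and the annotation are not given in the sources used here. Symbols and positions came from GENCODE M21 (GRCm38), which 55154 of 55335 identifiers (99.7%) matched.

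The test was limma (version 3.58.1, R 4.3.3, trend on, two-sided, group as the sole term) on log2(FPKM + 0.5). It covered 13367 genes, those averaging 0.5 FPKM or more over the 6 libraries, with Benjamini-Hochberg adjustment. In the 34186 genes with 1 annotated transcript, FPKM times length piled up at a common step, which implies between 17600000 and 20300000 fragments per library, but between 39.7% and 43.5% of low values were whole to within 0.1 of a step, where chance gives 20%, so no count test was run. Being relative to the library total, FPKM of all genes shift when abundant genes change.

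The members, the gene lists (general knowledge) and the tests were chosen with earlier results of these data known. The text names all members and, per list, the called genes where they are 4 or fewer, otherwise the 3 with the largest change at a mean of at least 1 FPKM, plus other list members by value. For *Csf1* and *Csf1r* it also names the 2 genes whose values correlate best with theirs. The scripts were tested on simulated data. Alternatives were 2 pseudocounts, 2 filters, 4 scalings, 2 variance estimates, a replicate block and each library left out. Coding sequences and windows of the beta chain genes came from the GENCODE transcripts, and promoters from RefSeq. Python 3.11.15, pandas 2.3.3, numpy 2.4.6 and matplotlib 3.10.9 were used.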

Additional observations from a re-analysis of the deposited data

How the results depend on the processing

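The cause of the changes listed here was not tested, apart from those in which fewer samples entered. Median-of-ratios and upper-quartile scaling each left 1 member called higher in the libraries labelled KO instead of 2, since *Csf1* had 0.19 (adjusted p = 0.112) and 0.21 (adjusted p = 0.0886). They turned *Csf1r* to -0.12 and -0.10 and *Spi1* to -0.14 and -0.12. Over all genes they gave 2044 higher and 2263 lower, and 2112 higher and 2157 lower, in place of 3619 and 1408, so that 47.5% and 49.5% of the called genes were higher instead of 72.0%. Median-of-ratios scaling left 12 genes of the pathway lists called higher. *Csf2ra* had -0.41 without the filter (adjusted p = 0.0588), -0.40 rescaled to TPM (adjusted p = 0.0777) and -0.41 with quantile normalization (adjusted p = 0.0716). The *Csf1* to *Csf1r* difference was 0.21 with quantile normalization.

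Leaving out 1 library at a time gave from 1 to 3 members called lower, with 1 left without WT replicate 1 and without WT replicate 2. *Csf2ra* lay between -0.51 and -0.36 (adjusted p between 0.0061 and 0.0946) and *Csf2rb* between -1.87 and -1.26 (adjusted p between 0.00526 and 0.0527). The *Csf2rb* to *Csf2rb2* difference lay between -0.38 and 0.13, and was 0.04 without WT replicate 1 and 0.13 without KO replicate 3. *Csf2rb2* and *Csf3r* were called in all 17 alternatives.

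The replicate number is shared between the groups, but nothing says that it marks a common batch. Deviations of same-numbered libraries correlated by 0.12, 0.04 and 0.26, and WT replicates 1 and 2 did not correlate best with their own number. With the replicate block 5934 genes were called in place of 5027, and no call of a member changed. Under this block the sign-flip permutation p-value of the *Csf1* to *Csf1r* difference was 0.25, the smallest that 3 pairs allow. Depth limits *Csf2* and *Csf3*, which lay under the filter and were listed at 0 in the libraries labelled KO, so no fold is given for them.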

Other observations

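Of 14 genes that mark macrophages grown in M-CSF all were tested. With the values as deposited 7 rose, 1 fell and 6 did not pass, against 27.1% higher and 10.5% lower of all tested genes. The list's median log2 fold change was 0.29, against 0.19 for all tested genes. *Mrc1*, the mannose receptor gene, had 28.3, 29.4 and 26.3 FPKM in WT replicates 1, 2 and 3 and 225, 223 and 213 FPKM in KO replicates 1, 2 and 3 (log2 fold change 2.96, limma adjusted p = 2.08e-06). *Fcgr1*, the high-affinity IgG receptor gene, fell from 121 ± 2.67 to 33.8 ± 0.714 FPKM (SD, n = 3 each, log2 fold change -1.83).

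The genes most like *Csf1* over the 6 libraries were *Stk10* (Pearson r = 0.9997) and *Srebf2* (r = 0.999), and those most like *Csf1r* were *Tnn* (r = 0.999) and *Kpna6* (r = 0.997), all on the log2(FPKM + 0.5) scale. These correlations are descriptions over libraries that fall into 2 groups, and 2488 of 13366 genes correlated with *Csf1* by more than 0.9. *Stk10* had 7.08, 6.40 and 4.20 FPKM in WT replicates 1, 2 and 3 and 18.2, 17.2 and 13.5 FPKM in KO replicates 1, 2 and 3, so its change was larger than that of *Csf1*.

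The 7 lymphocyte markers summed to at most 1.14 FPKM and the 6 dendritic cell markers to at most 1.24 FPKM in any library, and no gene of either list passed the filter. *Flt3*, the receptor of a related growth factor, was listed at 0 in all 6 libraries. Of 6 spinal cord markers *Mbp* was the only gene tested, and the list summed to between 4.53 and 6.93 FPKM. With the values as deposited, *Adgre1* and *Mertk* rose and *Cd14* and *Fcgr1* fell among the 7 macrophage markers. The mean of *Cd14* was 1010 FPKM in libraries labelled WT, against 99.4 FPKM in libraries labelled KO (log2 fold change -3.33). The log2 fold changes of *Adgre1* and *Mertk* were 0.30 and 0.72.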
